A study of Mus musculus with 60 samples.

Results

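The 7 genes described here are the mouse Fc gamma receptors Fcgr1, Fcgr2b, Fcgr3 and Fcgr4, their common signalling chain Fcer1g, the lectin Clec7a and the neonatal Fc receptor Fcgrt. They were chosen by name from the 35976 gene symbols of the raw count table, and all 7 have a row there. RNA was taken from the hippocampus of wild-type (WT) and NLGF mice in 60 libraries of total RNA depleted of ribosomal RNA. NLGF stands for AppNL-G-F, a knock-in line whose own App gene, under its own promoter, carries familial Alzheimer's disease mutations and a humanised amyloid-beta sequence. Each genotype was sampled at weeks 3, 8 and 24 of age with 5 samples labelled female and 5 labelled male, and the labels give no other allele and no treatment in any group. The design text counts the samples of both sexes as biological replicates, but the labels name no animal, so the p-values below speak to the spread among the samples, which may be partly technical. The tissue is bulk hippocampus, in which a change in the number of cells of a type and a change in RNA per cell cannot be told apart.

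Fc gamma receptors bind the constant part of immunoglobulin G. The activating receptors Fcgr1, Fcgr3 and Fcgr4 pass the signal through Fcer1g, whose ITAM (a paired tyrosine motif) recruits the kinase Syk, whereas Fcgr2b carries an inhibitory motif (ITIM) that recruits phosphatases such as SHIP1, the product of Inpp5d. Clec7a, also called Dectin-1, is a beta-glucan receptor with an ITAM-like motif of its own and is known in brain as a marker of microglia around amyloid plaques. Fcgrt, which pairs with beta-2 microglobulin (B2m) and recycles immunoglobulin G and albumin, does not signal through an ITAM and is known from vascular endothelium as well as from myeloid cells.

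In the GENCODE vM21 annotation of mm10, matched by symbol, 4 of the genes lie on chromosome 1 in the order Fcgr2b (170958617 to 170976547, minus strand), Fcgr4 (171018920 to 171029761, plus strand), Fcgr3 (171051174 to 171064935, minus strand) and Fcer1g (171229572 to 171234365, minus strand). These 4 genes lie within 275749 bases. Fcgr1 is on chromosome 3 (96282909 to 96293969), Clec7a on chromosome 6 (129461591 to 129472779) and Fcgrt on chromosome 7 (45092990 to 45103851), all on the minus strand. The annotation types Clec7a as a polymorphic pseudogene and the others as protein coding. Fcgr2b shares exonic bases with the antisense gene Gm38204, and Fcgrt lies across the antisense gene Gm45669 without shared exonic bases. The strand setting of the counts is not given in the sources used here, so reads of these pairs cannot be told apart.

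Fcgr2b and Fcgr3 also share sequence, which bears on how reads could be assigned between the inhibitory and the activating receptor. Of the distinct 50-base windows in their transcripts, 9.58% of those of Fcgr3 occur in Fcgr2b and 2.92% of those of Fcgr2b in Fcgr3, and for windows of 100 bases the shares are 2.54% and 0.753%. With all other genes counted the shares of Fcgr2b are 4.38% and 1.4%, and those of Fcgr3 are the same as with Fcgr2b alone. The other 5 genes share no window of either length with another gene. Windows were matched in the sense orientation of the transcripts only, so antisense overlap, as of Fcgr2b with Gm38204, is not in these shares. The longest run that the coding sequences of Fcgr2b-201 and Fcgr3-201 have in common is 129 bases, shown here because a read lying inside it names neither gene. It starts at base 278 of the 1020 coding bases of Fcgr2b and at base 263 of the 801 coding bases of Fcgr3.
Fcgr2b and Fcgr3, shared run: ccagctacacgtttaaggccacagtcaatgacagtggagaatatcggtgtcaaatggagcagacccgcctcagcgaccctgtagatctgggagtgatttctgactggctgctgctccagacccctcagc

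Promoters were taken from RefSeq (GRCm38.p6), where all 7 genes matched, as the 250 bases before the annotated start. They were searched on both strands for GAGGAA, a purine-rich core of the kind bound by PU.1, the transcription factor of myeloid cells. GAGGAA was found in 4 of the 7 promoters, those of Clec7a, Fcgr1, Fcgr3 and Fcgr4, against 23.1% of 27025 promoters of that length. The longer GAGGAAGT, which contains GAGGAA, was found in 1, that of Fcgr4, against 2.42%. A match is a description of these letters and not a bound site. Clec7a is shown as the gene with the largest genotype difference below (chr6:129472786-129473035, minus strand, capitals mark GAGGAA at 90 to 85 bases before the start). Fcgr4 is shown for the longer match (chr1:171018676-171018919, plus strand, capitals mark the core in reverse complement, TTCCTC, at 22 to 17 bases before the start). Fcer1g, called higher in NLGF at week 24 as were Fcgr3 and Fcgr2b, is shown as a promoter in which the core was not found in this window (chr1:171234366-171234599, minus strand). Bases of GENCODE exons were left off these printed sequences but were kept in the search. The windows of Fcgr2b and Fcgr3 lie inside the GENCODE spans of these genes, with 187 and 27 of the 250 bases in exons.
Clec7a: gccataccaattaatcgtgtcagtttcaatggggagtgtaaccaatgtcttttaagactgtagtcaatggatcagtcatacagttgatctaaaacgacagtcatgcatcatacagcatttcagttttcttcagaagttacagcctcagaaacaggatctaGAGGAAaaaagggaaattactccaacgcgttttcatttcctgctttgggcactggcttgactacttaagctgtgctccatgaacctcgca
Fcgr4: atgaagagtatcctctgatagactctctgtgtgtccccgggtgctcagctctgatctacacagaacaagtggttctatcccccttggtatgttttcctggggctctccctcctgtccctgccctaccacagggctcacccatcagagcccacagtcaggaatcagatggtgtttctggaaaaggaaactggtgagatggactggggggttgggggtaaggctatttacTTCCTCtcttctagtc
Fcer1g: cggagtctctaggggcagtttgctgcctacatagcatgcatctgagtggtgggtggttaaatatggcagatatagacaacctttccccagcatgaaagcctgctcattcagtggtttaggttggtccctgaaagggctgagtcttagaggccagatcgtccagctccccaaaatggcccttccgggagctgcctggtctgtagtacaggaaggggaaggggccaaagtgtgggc

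Levels are in CPM, the counts of a gene relative to the library total after TMM scaling over all 60 libraries. Total counts lay between 17.8 and 73.4 M, and 7 NLGF libraries of week 3 (females 1, 4 and 5 and males 2 to 5) held over 50 M, while the 3 others of that set and all WT libraries did not. No WT library is of the deeper kind, so calls that involve NLGF at week 3 are given with and without these 7. Among the deeper libraries, the library labelled NLGF week 3 male 2 had 250 CPM of Xist and 0 CPM over 4 genes of the Y chromosome, which goes against its label. For NLGF week 8 female 1 the title gives week 8 but the age entry 3 weeks, and the title was followed.

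Divided by the summed exon length, the 7 genes fell into a higher and a lower tier in WT hippocampus. At week 24 the mean level per kb of exon in WT was 6.56 CPM for Fcgrt, 4.83 for Fcer1g and 4.05 for Fcgr3. It was 0.937 CPM per kb for Fcgr1, 0.31 for Fcgr2b, 0.133 for Clec7a and 0.0664 for Fcgr4 (n = 10). Neighbours in that order whose ranges did not overlap were Fcgr3 and Fcgr1, and Fcgr1 and Fcgr2b. All other neighbours overlapped. In NLGF at week 24 the order was Fcer1g at 7.75 CPM per kb, Fcgrt at 6.56, Fcgr3 at 6.51, Clec7a at 1.39, Fcgr1 at 1.30, Fcgr2b at 0.599 and Fcgr4 at 0.124. Clec7a thus stood the sixth of 7 in WT and the fourth in NLGF, level with Fcgr1, from which its range could not be separated.

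**Figure D1:**
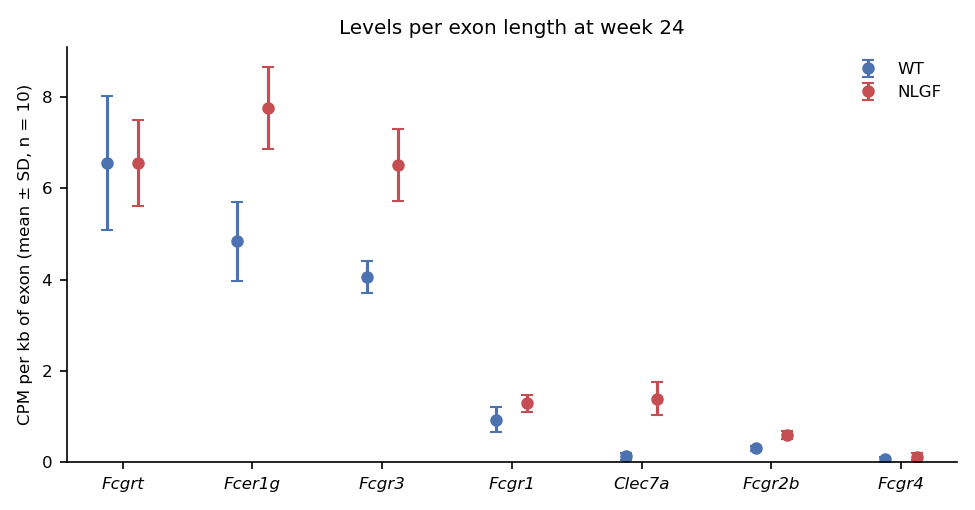
Level of each gene per kb of summed exon length at week 24 in CPM (vertical axis), as the mean ± SD of 10 libraries for WT and for NLGF. Fcgrt stands at 6.56 CPM per kb in either genotype, whereas Clec7a stands at 0.133 in WT and at 1.39 in NLGF.

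The comparison at week 24 asks how the receptors differ between the genotypes at the oldest age sampled. In edgeR's quasi-likelihood test, 4 of the 6 genes tested were higher in NLGF and none was lower, with 0.8% of the 16508 genes tested called higher and 0.0787% called lower. The 4 were Clec7a, Fcgr2b, Fcgr3 and Fcer1g. Clec7a passed the filter on low counts through its NLGF libraries, at 66 to 149 reads against 1 to 22 in WT. Its place among the genes tested thus depends on the level that the test compares. Fcgr1 did not pass the threshold, Fcgrt had the same mean in both genotypes, and Fcgr4 had too few reads to be tested. The median log2 fold change of the 6 genes was 0.69, against -0.000633 over all genes tested.

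Among the activating receptors, Fcgr3, the low-affinity receptor, lay between 9.25 and 13.3 CPM in NLGF with a median of 11.4. In WT it lay between 6.05 and 7.91 CPM with a median of 7.04. All 10 NLGF libraries stood above all 10 WT libraries. How many of all genes separate the groups like this was not counted, here or for the genes below. The log2 fold change was 0.69 ± 0.0747 (SE, adjusted p = 5.45e-06 in edgeR's quasi-likelihood test), a ratio of means of 1.61.

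Fcgr1, the high-affinity receptor, lay between 2.62 and 4.4 CPM in NLGF with a median of 3.28, and between 1.5 and 4.03 CPM in WT with a median of 2.35. The groups overlapped: 1 NLGF library stood above all WT libraries, and 8 WT libraries stood below all NLGF libraries. The log2 fold change was 0.48 ± 0.139 (SE, adjusted p = 0.152 in edgeR's quasi-likelihood test). Its call depended on the analysis: the adjusted p was 0.0432 in DESeq2, 0.0427 in edgeR with all 60 libraries in 1 fit and 0.0413 in edgeR with endothelial markers as a covariate, and it was 0.0224 in edgeR without WT female 4. The authors' deposited table lists Fcgr1 at week 24 with a log2 fold change of 0.41 and an adjusted p of 0.0118.

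Fcgr4, the third activating receptor, was near the limit of detection at every age. It had at most 19 reads in any library and no read in 8 of the 60, where a count of 0 allows up to 0.0908 to 0.164 CPM, depending on the library. At week 24 it lay between 0.0718 and 0.386 CPM in NLGF and between 0 and 0.242 CPM in WT. Without a filter on low counts the log2 fold change was 0.94 ± 0.46 (SE, adjusted p = 0.656 in edgeR's quasi-likelihood test), so a difference was not detectable at this depth.

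Fcer1g, the chain shared by the activating receptors, lay between 5.38 and 7.77 CPM in NLGF with a median of 6.76. In WT it lay between 3.07 and 5.25 CPM with a median of 4.37, and the groups did not overlap. The log2 fold change was 0.69 ± 0.0917 (SE, adjusted p = 6.91e-05 in edgeR's quasi-likelihood test). Tyrobp, the adaptor that carries the ITAM for Trem2 and other receptors, lay between 15.4 and 20.5 CPM in NLGF and between 7.43 and 10.4 CPM in WT. It rose by 1.16 ± 0.0701 on the log2 scale (SE, adjusted p = 5.88e-10 in edgeR's quasi-likelihood test).

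The inhibitory receptor Fcgr2b lay between 2.77 and 4.37 CPM in NLGF with a median of 3.33, and between 1.18 and 2.25 CPM in WT with a median of 1.8. Again no NLGF library overlapped a WT library. The log2 fold change was 0.95 ± 0.115 (SE, adjusted p = 1.99e-05 in edgeR's quasi-likelihood test), a ratio of means of 1.94.

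Clec7a lay between 2.31 and 4.91 CPM in NLGF with a median of 3.89. In WT it lay between 0.0404 and 0.894 CPM with a median of 0.327, from 1 to 22 reads per library. Every NLGF library stood above every WT library, and the ratio of means was 10.4. The log2 fold change was 3.37 ± 0.266 (SE, adjusted p = 3.98e-08 in edgeR's quasi-likelihood test), the largest among the 6 genes tested.

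Fcgrt lay between 11 and 17.6 CPM in NLGF with a median of 13.5, and between 10.7 and 20.8 CPM in WT with a median of 12.5. The ranges lay almost on each other, and the log2 fold change was 0.00 ± 0.11 (SE, adjusted p = 0.995 in edgeR's quasi-likelihood test). Its partner B2m, which also forms the light chain of MHC class I, lay between 49.7 and 79.2 CPM in NLGF and between 32.4 and 46.1 CPM in WT. B2m rose by 0.64 ± 0.0809 on the log2 scale (SE, adjusted p = 3.48e-05 in the same test), with no overlap between the groups.

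**Figure D2:**
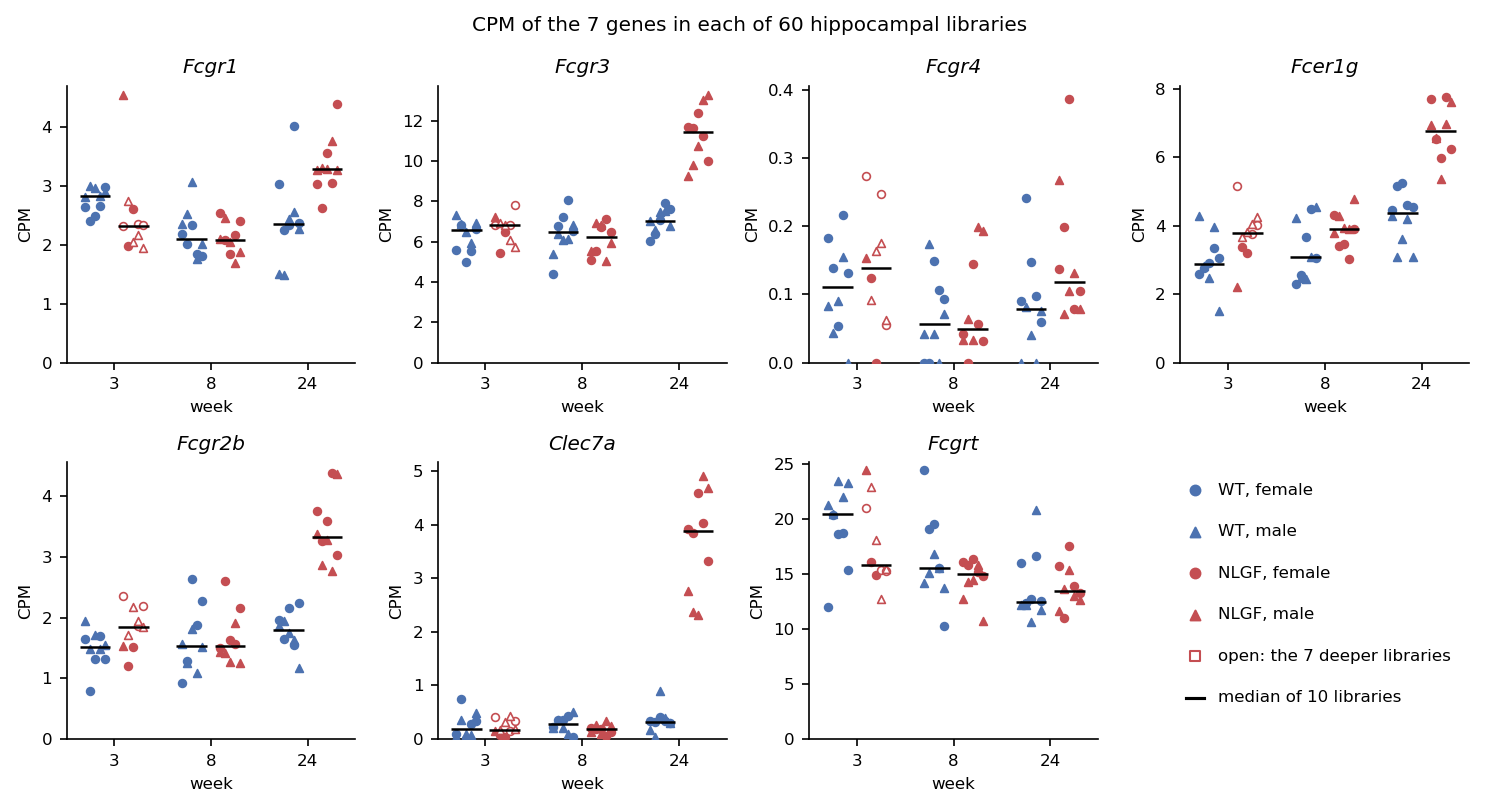
CPM of each of the 7 genes in every library (vertical axes, linear, 1 scale per gene) by week and genotype, with circles for libraries labelled female, triangles for male, open symbols for the 7 deeper libraries and bars for medians. At week 24 the NLGF libraries of Fcgr3, Fcer1g, Fcgr2b and Clec7a all lie above the WT libraries, and those of Fcgrt do not separate.

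The 4 calls at week 24 held in each of the 20 fits that left out 1 library. They did not hold with the log2 sum of 12 microglia markers as a covariate, where 0 of the 6 genes were called and 6 genes in all. In that fit the log2 fold changes were 2.35 ± 0.497 for Clec7a (adjusted p = 0.173), 0.60 ± 0.267 for Fcgr2b (adjusted p = 0.55), 0.37 ± 0.202 for Fcer1g (adjusted p = 0.594) and 0.20 ± 0.142 for Fcgr3 (adjusted p = 0.664), all from edgeR's quasi-likelihood test. The summed level of the 12 markers was 363 to 455 CPM in NLGF and 313 to 355 CPM in WT at week 24, so the covariate itself separated the genotypes. Of the 12 markers, 8 were called higher at that age.

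Set against the same sum of microglia markers, 2 of the genes still separated the groups at week 24. Clec7a stood at 0.551 to 1.08 CPM per 100 CPM of marker sum in NLGF and at 0.0129 to 0.277 in WT. Fcgr3 stood at 2.36 to 2.94 in NLGF and at 1.82 to 2.34 in WT on that scale. The ranges of Fcgr2b (0.609 to 0.999 in NLGF and 0.375 to 0.686 in WT), Fcer1g (1.29 to 1.81 and 0.98 to 1.53) and Fcgr1 (0.608 to 1.11 and 0.463 to 1.14) overlapped. Fcgrt was the gene whose median was lower in NLGF on this scale, at 3.27 against 3.8 in WT. These ratios are a description and were not tested, and how many of all genes separate on this scale was not counted.

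**Figure D3:**
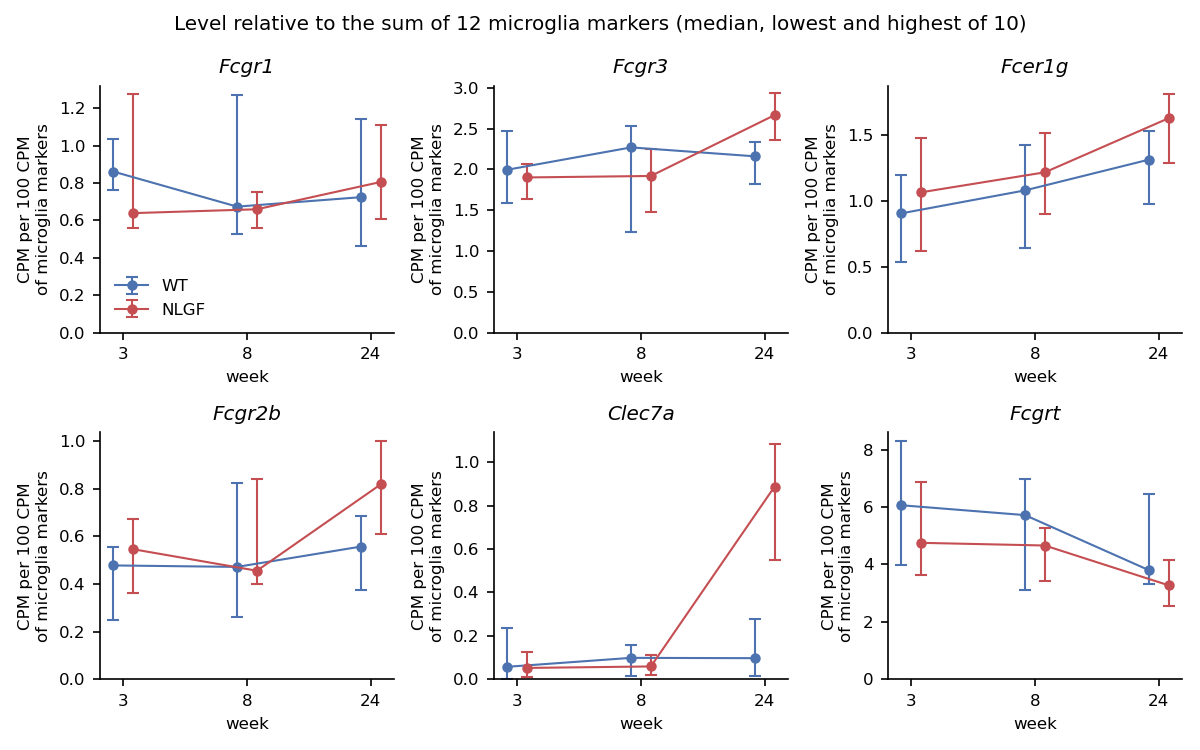
Level of 6 of the genes per 100 CPM of the summed level of 12 microglia markers (vertical axis) by week, as the median with the lowest and highest of 10 libraries for WT and NLGF. At week 24 the bars of Clec7a (0.551 to 1.08 in NLGF, 0.0129 to 0.277 in WT) and of Fcgr3 do not overlap between genotypes, and the other bars do.

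Markers of other cells that carry Fc receptors were low or alike between the genotypes at week 24. The 8 markers of border macrophages summed to 6.14 to 11.6 CPM in NLGF and to 6.18 to 13.7 CPM in WT. None of the 5 that were tested was called. The 9 markers of monocytes and neutrophils summed to at most 0.913 CPM in NLGF and to at most 0.558 CPM in WT, and Ly6g was at 0 in both groups. The 5 markers of B and plasma cells in the table summed to at most 1.27 CPM, and the 6 of T and NK cells to at most 0.664 CPM. The 6 endothelial markers, of the cells in which Fcgrt is best known, summed to 135 to 174 CPM in NLGF and 148 to 182 CPM in WT.

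The signalling genes around the receptors were taken as lists. Their calls at week 24 stand beside the 8 of 12 microglia markers called higher, and with the sum of those markers as a covariate 2 genes of these lists were still called in edgeR, Tyrobp and Trem2. Of 23 kinases and adaptors below ITAM receptors, 22 were tested and 4 rose at week 24: the Src-family kinase Lyn (0.41 ± 0.0713, adjusted p = 0.00245), the exchange factor Vav1 (0.45 ± 0.0825, adjusted p = 0.00445), the adaptor Lat2 (0.88 ± 0.154, adjusted p = 0.00277) and the lipid kinase subunit Pik3cg (0.41 ± 0.0878, adjusted p = 0.0204), each as log2 fold change in edgeR's quasi-likelihood test. None fell. Syk, the kinase that binds the ITAM, stood at 4.6 ± 0.88 CPM (SD) over the 10 NLGF libraries and at 4.76 ± 0.77 CPM over the 10 WT libraries, with an adjusted p of 0.923 in edgeR. The median log2 fold change of the 22 was 0.32.

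Of 20 inhibitory phosphatases and ITIM receptors, 15 were tested, 7 rose and none fell, with a median log2 fold change of 0.38. At weeks 3 and 8, and across ages in WT, 14 of the 20 passed the filter on low counts. A gene's place among the 15 can thus depend on its level in NLGF at week 24, which the test compares. Inpp5d, which encodes SHIP1, rose by 0.34 ± 0.0473 (SE, adjusted p = 0.000129 in edgeR). Ptpn6, the phosphatase SHP-1, rose by 0.74 ± 0.0803 and Ptprc, the phosphatase CD45, by 0.89 ± 0.106 on the log2 scale. Among the ITIM receptors Cd22 rose by 1.56 ± 0.265, Siglecf by 1.15 ± 0.175, Lair1 by 0.45 ± 0.0931 and Cd33 by 0.40 ± 0.0892 on the log2 scale. Ptpn11, a phosphatase expressed in most cells, had an adjusted p of 0.908 in edgeR.

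Of 13 other ITAM adaptors and the receptors coupled to them, 6 were tested and 3 rose: Tyrobp, Trem2 (1.18 ± 0.0656, adjusted p = 1.82e-10 in edgeR) and Siglech (0.66 ± 0.0858, adjusted p = 5.47e-05 in edgeR). Of 14 relatives and partners of the Fc receptors, 5 were tested and 2 rose, B2m and Fcrls, a microglial Fc receptor-like gene (0.49 ± 0.0683, adjusted p = 0.000148 in edgeR). Siglech and Fcrls are also in the microglia list. Of 15 C-type lectins near or akin to Clec7a, 2 were tested (Clec1a and Clec2d), and neither was called, with log2 fold changes of 0.20 and 0.08. Of 13 immunoglobulin genes, the ligands of these receptors, 1 matched a row of the table and had too few reads to be tested. The others were not analysed here.

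At week 8 no gene was called among the 16494 tested (0%), with 1292 at an unadjusted p under 0.05 in edgeR, and DESeq2 called 1. Of the 7 genes 5 were tested. Fcer1g lay between 3.02 and 4.77 CPM in NLGF and between 2.29 and 4.56 CPM in WT, a log2 difference of 0.22 ± 0.135 (SE, adjusted p = 0.664 in edgeR's quasi-likelihood test). Fcgr3 lay between 5.05 and 7.1 CPM in NLGF and between 4.42 and 8.07 CPM in WT, and Fcgr2b between 1.25 and 2.6 CPM in NLGF and between 0.927 and 2.63 CPM in WT. The groups overlapped for each of these genes. The log2 fold changes of the 5 genes lay between -0.18 for Fcgrt and 0.22 for Fcer1g.

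Clec7a at week 8 lay between 0.057 and 0.33 CPM in NLGF with a median of 0.181, and between 0.0463 and 0.503 CPM in WT with a median of 0.283. These levels rest on 2 to 10 and 1 to 14 reads per library. Clec7a did not pass the filter on low counts, and without the filter its log2 fold change was -0.66 ± 0.352 (SE, adjusted p = 0.719 in edgeR).

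At week 3, 3.78% of the 16605 genes tested were called, and 0 of the 5 genes tested here were among them. Fcer1g lay between 2.2 and 5.18 CPM in NLGF with a median of 3.79, and between 1.5 and 4.3 CPM in WT with a median of 2.87. Its log2 fold change was 0.33 ± 0.152 (SE, adjusted p = 0.209 in edgeR's quasi-likelihood test). The authors' deposited table, whose rows reach an adjusted p of 0.06, lists Fcer1g at week 3 with 0.0576. Clec7a lay between 0.0303 and 0.437 CPM in NLGF with a median of 0.175, and between 0 and 0.74 CPM in WT with a median of 0.185, from at most 29 reads per library, and did not pass the filter on low counts. The genotypes overlapped for both genes.

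At week 3 the 7 deeper NLGF libraries and the 3 others differed in level. Fcer1g was at 4.11 ± 0.51 CPM in the 7 deeper NLGF libraries and at 2.93 ± 0.644 CPM in the 3 others (SD), against 2.97 ± 0.781 CPM in the 10 WT libraries. Fcgr2b was at 2.01 ± 0.231 CPM in the 7 deeper libraries and at 1.42 ± 0.188 CPM in the 3 others, against 1.49 ± 0.312 CPM in WT. Clec7a was at 0.289 ± 0.122 CPM in the 7 deeper libraries and at 0.0887 ± 0.0617 CPM in the 3 others, against 0.248 ± 0.235 CPM in WT, so here it was the mean of the 3 others that lay away from that of WT, at few reads. Without the 7 deeper libraries the log2 fold changes turned from 0.33 to -0.04 for Fcer1g, from 0.30 to -0.03 for Fcgr2b and from -0.17 to 0.15 for Fcgr1, and no gene at all was called. Those of Fcgr3 and Fcgrt went from 0.06 to 0.05 and from -0.16 to -0.03. Depth and the other traits of these libraries cannot be told apart from genotype at week 3 with all libraries in the fit.

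**Figure D4:**
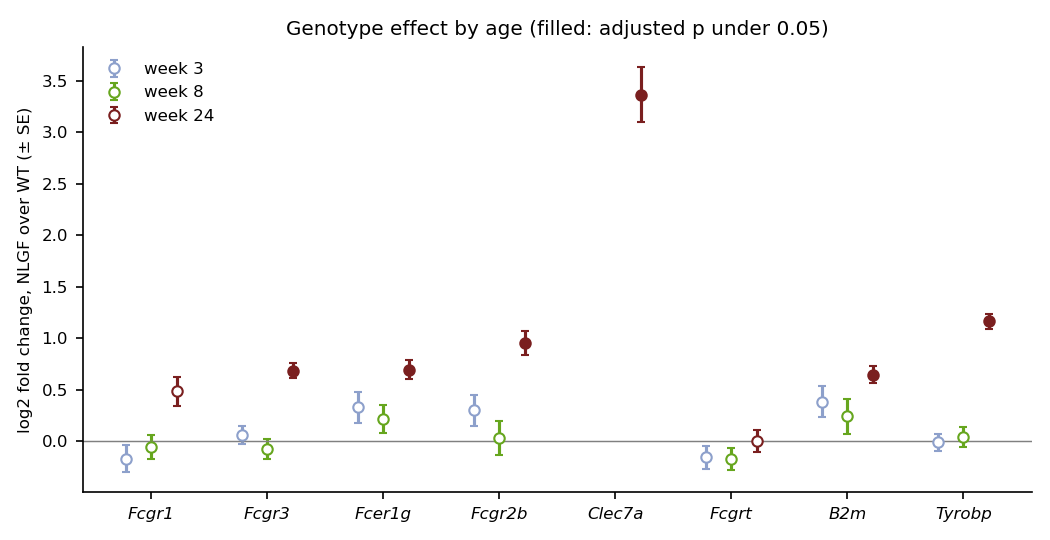
Log2 fold change of NLGF over WT ± SE (vertical axis) at weeks 3, 8 and 24 for the 6 genes tested at week 24 and for the partners B2m and Tyrobp, with filled points for an adjusted p under 0.05 in edgeR. All filled points are at week 24, where Clec7a stands at 3.37, and Clec7a was not tested at weeks 3 and 8.

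Whether the genotype effect itself differed between ages was tested on all 60 libraries. Between weeks 24 and 8 the effect differed for 3 of the 6 genes, all higher at week 24, with 0.31% of 17752 genes called higher. Clec7a did not pass the filter at weeks 3 and 8 alone, and was tested here with its week 24 libraries in the fit. The difference in log2 fold change was 4.04 ± 0.542 for Clec7a (SE, adjusted p = 1.13e-06), 0.92 ± 0.2 for Fcgr2b (adjusted p = 0.0102) and 0.76 ± 0.117 for Fcgr3 (adjusted p = 2.94e-05) in edgeR's quasi-likelihood test. For Fcer1g it was 0.48 ± 0.182 (adjusted p = 0.848), for Fcgr1 0.54 ± 0.18 (adjusted p = 0.533) and for Fcgrt 0.18 ± 0.162 (adjusted p = 1). Fcer1g was thus called at week 24 and not at week 8, but the difference between these ages did not pass the threshold.

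Between weeks 24 and 3 the effect differed for Clec7a (3.39 ± 0.526, adjusted p = 2.76e-05), Fcgr3 (0.63 ± 0.116, adjusted p = 7e-04) and Fcgr1 (0.66 ± 0.177, adjusted p = 0.0425) in edgeR, with 0.901% of all genes called higher. Without the 7 deeper libraries the call held for 1 gene, Clec7a (4.98 ± 0.785, adjusted p = 0.000194 in edgeR), while Fcgr3 was at 0.64 ± 0.151 (adjusted p = 0.0644) and Fcgr1 at 0.34 ± 0.218 (adjusted p = 0.549). The difference of Fcgr3 thus kept its size at a larger error, and that of Fcgr1 was smaller. That of Clec7a was larger, but its NLGF level at week 3 then rests on 3 libraries at 0.0303 to 0.153 CPM, with at most 3 reads each. The call of Fcgr1 was also lost with the replicate number as a block (adjusted p = 0.0754), with no filter (adjusted p = 0.0959) and in 28 of the 60 fits that left out 1 library. Those libraries were the 7 deeper ones, WT week 3 females 1, 4 and 5 and males 2, 4 and 5, NLGF week 24 females 3 and 5 and males 1 to 5, WT week 24 females 2, 3 and 5 and males 1, 2 and 5, and NLGF week 8 females 3 and 4. Fcgr2b missed the threshold at 0.66 ± 0.198 (adjusted p = 0.0873) and passed it without WT week 3 female 2 (adjusted p = 0.0397). Between weeks 8 and 3 none of the 6 genes was called, with 0.18% of all genes called, and none was called without the 7 deeper libraries.

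Change with age was tested within each genotype. In WT, 0 of 5 genes changed from week 3 to week 8 (7.14% of genes called) or from week 8 to week 24 (0.279%). From week 3 to week 24, with 10.6% of genes called higher and 11.3% lower, Fcer1g rose by 0.49 ± 0.154 (SE, adjusted p = 0.02) and Fcgrt fell by 0.50 ± 0.132 (adjusted p = 0.00577) on the log2 scale in edgeR's quasi-likelihood test. Fcgrt in WT had a median of 20.4 CPM at week 3 (12 to 23.5), of 15.6 at week 8 (10.3 to 24.4) and of 12.5 at week 24 (10.7 to 20.8). The ranges of the ages overlapped. Over the same ages the summed level of 8 border macrophage markers went from 9.52 to 23.1 CPM at week 3 to 6.18 to 13.7 CPM at week 24 in WT, and that of the 6 endothelial markers from 147 to 223 CPM to 148 to 182 CPM. Of these markers 4 of 6 tested and 3 of 6 were called lower, as were 5 of 5 blood markers, whose sum went from 149 to 549 CPM to 55.8 to 184 CPM. Their part in the change of Fcgrt was not tested.

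In NLGF no gene of the 6 tested was called from week 3 to week 8 (10.4% of genes called), with or without the 7 deeper libraries. From week 8 to week 24, with 1.36% of genes called higher, 5 of the 6 rose and Fcgrt did not. Among the 5, Clec7a passed the filter through its week 24 libraries, at 66 to 149 reads against 2 to 10 at week 8. The rises on the log2 scale were 4.35 ± 0.297 for Clec7a, 1.06 ± 0.131 for Fcgr2b, 0.89 ± 0.0811 for Fcgr3, 0.81 ± 0.104 for Fcer1g and 0.67 ± 0.127 for Fcgr1 (adjusted p at most 0.00161 in edgeR's quasi-likelihood test). Fcgr1 in NLGF lay between 1.68 and 2.55 CPM at week 8 and between 2.62 and 4.4 CPM at week 24, so its ages did not overlap. From week 3 to week 24, with 12.3% of genes called higher and 13.3% lower, 5 genes rose and Fcgrt fell. With all libraries the rises on the log2 scale were 3.90 for Clec7a, 0.92 for Fcgr2b, 0.85 for Fcer1g, 0.79 for Fcgr3 and 0.45 for Fcgr1. Without the 7 deeper libraries they were 5.45 for Clec7a, 1.32 for Fcgr2b, 1.19 for Fcer1g and 0.82 for Fcgr3, and these 4 calls held. The value of Clec7a then rests at week 3 on 3 libraries with at most 3 reads each. Fcgrt fell by 0.34 ± 0.105 (adjusted p = 0.0149) with all libraries and by 0.42 ± 0.138 (adjusted p = 0.0246) without the 7, in edgeR. Beside that fall, 5 of the 6 border macrophage markers tested, 5 of 6 endothelial markers and 5 of 5 blood markers were called lower in NLGF from week 3 to week 24, and their part in it was not tested. Without the 7 deeper libraries the rise of Fcgr1 from week 3 was 0.14 ± 0.184 and was not called (adjusted p = 0.6 in edgeR).

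Whether the genotype effect differed between the sexes was tested at each age, as male minus female. No gene was called at week 3, 8 or 24 in edgeR (0%), with 2012, 1046 and 534 genes at an unadjusted p under 0.05. By DESeq2 the week 3 count was 81, which held none of the 5 family genes given an adjusted p, and the counts at weeks 8 and 24 were 0. Without the 7 deeper libraries edgeR's week 3 count was 5, and without NLGF week 3 male 1 it was 4. The week 3 test kept NLGF week 3 male 2, whose Xist level goes against its label, as male, and without that library the count was 0. The largest such difference in units of its error among the genes tested (5 at weeks 3 and 8, 6 at week 24) was that of Fcer1g at week 24, 0.35 ± 0.169 (SE, adjusted p = 0.999 in edgeR). There Fcer1g was at 4.8 ± 0.37 CPM in WT females and 3.65 ± 0.583 CPM in WT males, and at 6.85 ± 0.835 and 6.7 ± 0.827 CPM in NLGF females and males (SD, n = 5 each).

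Ratios of counts within a library show how the partners stood to each other, and need no scaling between libraries. The count of Fcgrt over that of B2m had a median of 0.221 in NLGF at week 24 (0.193 to 0.275) and of 0.345 in WT (0.237 to 0.485). The count of Fcer1g over that of Tyrobp had a median of 0.369 in NLGF (0.316 to 0.452) and of 0.523 in WT (0.321 to 0.692). Both ratios were lower in NLGF at week 24 in the median, with ranges that overlapped. The earlier ages differed between the ratios. For Fcgrt over B2m the median was lower in NLGF there too, at 0.445 against 0.698 in WT at week 3 and 0.397 against 0.538 at week 8. For Fcer1g over Tyrobp it was higher in NLGF, at 0.574 against 0.414 at week 3 and 0.534 against 0.464 at week 8. At week 3 Fcer1g was at 4.11 CPM in the 7 deeper NLGF libraries, 2.93 in the 3 others and 2.97 in WT. Neither ratio was taken without those 7, so genotype and the kind of library cannot be told apart at week 3.

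The activating receptors together over the inhibitory one were also lower in the median in NLGF at week 24. The median was lower in NLGF at the earlier ages too, at 4.86 against 5.87 in WT at week 3 and 5.34 against 5.62 at week 8. At week 3 Fcgr2b was at 2.01 CPM in the 7 deeper NLGF libraries, 1.42 in the 3 others and 1.49 in WT. The ratio was not taken without those 7, so genotype and the kind of library cannot be told apart at week 3. At week 24 the summed count of Fcgr1, Fcgr3 and Fcgr4 over that of Fcgr2b had a median of 4.37 in NLGF (3.29 to 6.11) and of 5.03 in WT (4.19 to 7.75). The means were 4.36 ± 0.765 and 5.51 ± 1.34 (SD, n = 10 each). Fcer1g over the summed activating receptors had a median of 0.456 in NLGF (0.367 to 0.543) and of 0.434 in WT (0.338 to 0.579). The ranges overlapped, and these ratios were not tested.

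**Figure D5:**
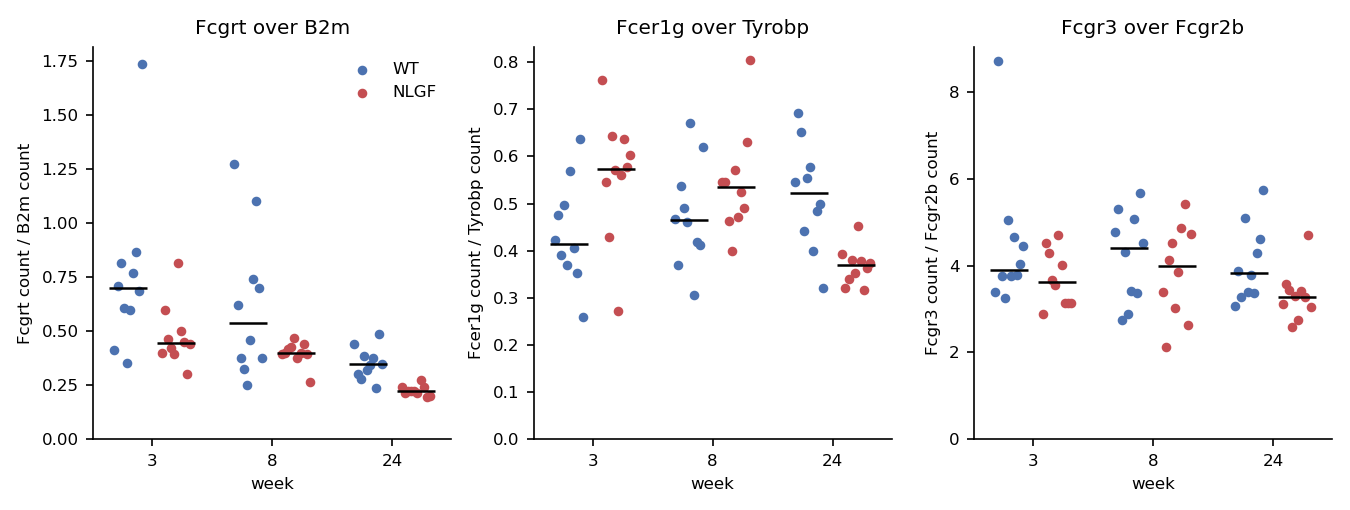
Count of Fcgrt over B2m, of Fcer1g over Tyrobp and of Fcgr3 over Fcgr2b in each library (vertical axes, linear) by week and genotype, with bars for the medians of 10 libraries. At week 24 the median of Fcgrt over B2m is 0.221 in NLGF and 0.345 in WT, and that of Fcer1g over Tyrobp is 0.369 and 0.523.

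Within the 10 libraries of a genotype at week 24, the level of Fcer1g was set against those of the other 5 genes tested, and none of the 10 relations passed the threshold. Pearson's r for Fcer1g and Fcgr2b in NLGF was 0.517 and Spearman's rho 0.467 (permutation p = 0.126 and 0.179, Benjamini-Hochberg adjusted 0.494 and 0.517), and r was 0.478 without the 2 libraries farthest from the median of Fcer1g. Over the 10 relations the adjusted permutation p of r lay between 0.494 and 0.774.

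The genes whose mean profile over the 6 sets of genotype and age was nearest to that of each member were found among 14821 others, by the root mean square of the differences between centred log2(CPM + 0.02) means. For Clec7a they were the integrin Itgax (distance 0.22), the cystatin Cst7 (0.54) and the chemokine Ccl6 (0.61). At week 24 the mean of Itgax was 0.313 CPM in WT, against 4.68 CPM in NLGF. For Fcgr3 they were the 3 chains of complement C1q, C1qb, C1qc and C1qa (0.05 to 0.06), and for Fcgr2b the lysosomal protein Cd68 (0.06), Samsn1 and the complement receptor C3ar1. B2m was nearest to Fcer1g (0.05), followed by the cytokine receptor Csf3r and the cannabinoid receptor Cnr2.

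For Fcgr1 the nearest were Dhx58, an interferon-induced RNA sensor, at 0.04, the oxidase subunit Ncf1 and Pld4. Fcgrt lay near genes outside the myeloid lists, with the ephrin receptor Epha2 at 0.01 and Ogfr and the laminin chain Lamb2 at 0.02 to 0.03. Those of Fcgr4 (Ctla2b, Slc37a2 and Slc16a8) rest on its few reads. Each distance covers 6 means that share their libraries. Over the 6 sets Clec7a spanned 4.20 on the log2 scale and Fcgrt 0.50.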

How the data were processed

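The authors deposited raw counts per gene symbol for 60 hippocampal libraries. The submitters' processing notes name the build mm10 and the tools FastQC, STAR, edgeR and DESeq2. The read counter, the annotation and strandedness are not given in the sources used. A second deposited table holds the authors' called genes with, per the file headers, the mean of normalized counts (a signal over samples), the log2 fold change with its standard error (another value of the authors) and the unadjusted and adjusted p-value.

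Counts were analysed in R 4.3.3 with edgeR 4.0.16 (filterByExpr with a minimum count of 10, TMM, robust quasi-likelihood F-test, 2-sided, Benjamini-Hochberg over all genes tested, threshold 0.05). A standard error is the size of the log2 fold change over the root of F. Genotypes were compared at each age among 20 libraries with sex as covariate, differences between ages on all 60, ages within the 30 libraries of a genotype, and sex by an interaction. The scripts were tested on simulated data. Depth was 17.8 to 73.4 M counts a library, so a count of 0 allows up to 3 counts, and such limits cover counting error only.

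Alternatives were RLE scaling, DESeq2 1.42.0, no filter or 1 CPM in 10 libraries, all 60 libraries in 1 fit, no sex term, marker covariates, a replicate block, each library left out, and the 7 deeper libraries left out. The members, lists and alternatives were chosen with earlier results of these data known. All members were followed in each comparison, though not each is named in every paragraph. Of each list up to 6 called members by smallest p at week 24 are named, with its counts. B2m, Tyrobp and the 3 genes nearest to each member are named too. Further genes (Syk, Ptpn11, Clec1a, Clec2d, Cd33) were named after their values were seen.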

Additional observations from a re-analysis of the deposited data

Results flagged for a closer look

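In 5 of the 84 groups of 5 libraries (7 genes, 12 groups of sex, genotype and age), 1 library stood apart from the other 4 by Dixon's test, which by chance happens in about 1 group in 20. Fcer1g was lowest in NLGF week 3 male 1, at 2.20 CPM from 43 reads, against 3.68 to 4.25 CPM in the other males of that set. Male 1 is the male of that set that is not among the 7 deeper libraries. Fcgr1 was highest in NLGF week 24 male 4, at 3.76 CPM against 3.27 to 3.30 CPM in the others. Fcgr2b was highest in NLGF week 8 male 4, at 1.91 CPM against 1.25 to 1.44 CPM. Fcgrt was highest in NLGF week 3 female 1, at 21.0 CPM against 14.9 to 16.1 CPM, and in WT week 24 male 4, at 20.8 CPM against 10.7 to 12.2 CPM.

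The genotype effect differed between ages in edgeR's test of the difference itself for 6 pairs of gene and age. Between weeks 24 and 8 it was larger at week 24 by 4.04 for Clec7a, 0.92 for Fcgr2b and 0.76 for Fcgr3 on the log2 scale. Between weeks 24 and 3 it was larger at week 24 by 3.39 for Clec7a, 0.66 for Fcgr1 and 0.63 for Fcgr3, and without the 7 deeper libraries of NLGF week 3 neither Fcgr1, at 0.34 (adjusted p = 0.549 in edgeR), nor Fcgr3, at 0.64 (adjusted p = 0.0644), was called.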

How the results depend on the processing

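The count of members called went at week 24 from 4 to 0 with the microglia covariate and to 5 with DESeq2, all 60 libraries or the endothelium covariate. It went for the genotype effect of week 24 minus week 3 from 3 to 1 without the 7 deeper libraries and to 2 with no filter or the replicate block, and for NLGF week 24 over week 3 from 6 to 5 without the 7. Log2 values changed sign, none past the threshold, without the 7 deeper libraries at week 3 (Fcgr1 0.15, Fcer1g -0.041, Fcgr2b -0.031), for week 8 minus week 3 (Fcgr1 -0.20, Fcer1g 0.25, Fcgr2b 0.060, Clec7a 0.94), for NLGF week 8 over week 3 (Fcgr2b 0.27, Clec7a 1.11) and for sex at week 3 (Fcgr3 0.13, Fcgrt 0.31). With the microglia covariate they changed for Fcgr3 at week 3 (-0.0013) and Fcgrt at week 24 (-0.042). The cause was not tested. Over all genes, calls moved by over 1.5 times at week 3 from 628 (DESeq2 1486, all 60 libraries 1904, endothelium covariate 392, no filter 351, replicate block 165, microglia covariate or without the 7 deeper libraries 0), at week 24 from 145 (DESeq2 224, microglia covariate 6), for week 24 minus week 3 from 204 (DESeq2 308, no filter 124, without the deeper libraries 15), for week 8 minus week 3 from 32 (DESeq2 80, no filter 21, without the deeper libraries 0) and in WT for week 24 over week 8 from 47 (DESeq2 111, replicate block 29).

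Leaving out 1 library at a time gave 4 to 5 members called at week 24 and 2 to 4 for week 24 minus week 3. Signs changed within ranges that span 0: -0.088 to 0.011 for Fcgr1 and -0.049 to 0.12 for Fcgr2b at week 8, -0.042 to 0.11 for Fcgrt at week 24, -0.079 to 0.051 for Fcgrt in week 8 minus week 3, -0.022 to 0.072 for Fcgr3 in WT and -0.024 to 0.11 for Fcer1g in NLGF from week 3 to 8. For sex they were -0.19 to 0.18 (Fcgr1) and -0.29 to 0.024 (Fcer1g) at week 3, -0.011 to 0.18 (Fcgr3), -0.021 to 0.28 (Fcer1g), -0.23 to 0.096 (Fcgr2b) and -0.10 to 0.18 (Fcgrt) at week 8, and -0.12 to 0.013 (Fcgr3), -0.044 to 0.16 (Fcgr2b), -0.60 to 0.33 (Clec7a) and -0.16 to 0.13 (Fcgrt) at week 24.

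Samples with the same replicate number correlated above 0.1 in 2, 3 and 7 of 10 pairs at weeks 3, 8 and 24. Of the WT libraries, 2, 1 and 6 were best matched by their own number among the 5 NLGF libraries of their sex. Matches by number were thus most frequent at week 24, and whether the numbers mark pairs there was not tested. The main fits took no pairing, and the replicate block was run as an alternative. With the replicate block 4 members were called at week 24 as before, the block ended 1 call (Fcgr1 in week 24 minus week 3), and Fcgrt in week 8 minus week 3 was at 0.0068. Fcgr4 and, at weeks 3 and 8, Clec7a are limited by few reads.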
